A study of Rattus norvegicus with 23 samples.

Results

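The genes described here code for the protein subunits of the 5 complexes of oxidative phosphorylation that are encoded in the nucleus. They were taken from the deposited count table as the protein-coding identifiers whose names begin with Nduf, then a, b, c, s or v and a digit, are Sdha, Sdhb, Sdhc, Sdhd or Cyc1, or begin with Uqcr, Cox and a digit from 4 to 8, or Atp5. The rule found 89 of 32883 identifiers, 36 for complex I, 4 for complex II, 10 for complex III, 22 for complex IV and 17 for complex V. Ndufa4 and Ndufa4l2 were counted with complex IV, where the NDUFA4 protein resides. Ndufa10l1, Ndufv3, Uqcrb and Cox6b1 each stood for 2 identifiers, which are reported separately, and how reads shared by near-identical copies were divided among them is uncertain.

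RNA was sequenced from primary rat brain endothelial cells, the cells that line the vessels of the blood-brain barrier, grown in culture inserts in the presence of pericytes and astrocytes. The 6 OGD/R inserts underwent oxygen-glucose deprivation and reoxygenation, a culture model of stroke. The 5 DMT inserts underwent OGD/R with N,N-dimethyltryptamine, a ligand of sigma and serotonin receptors, and the 6 BD1063 inserts underwent OGD/R with DMT and the sigma receptor antagonist BD1063, while 6 further inserts were kept in normoxia. Every insert held the same co-culture, no group received DMT or BD1063 without OGD/R, the labels state neither doses nor times, and a library is named below by its group and number, as in DMT 5. Whether the inserts came from separate cell isolations is also unstated, so each p-value covers the spread among these inserts alone.

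Oxidative phosphorylation takes place in the inner mitochondrial membrane. Complexes I and II pass electrons from NADH and succinate to coenzyme Q, complex III passes them to cytochrome c and complex IV to oxygen, while complexes I, III and IV pump protons that complex V, the ATP synthase, uses to make ATP. Brain endothelium is known for a high content of mitochondria, and the subunits come from both the nuclear and the mitochondrial genome, so their amounts have to be matched during assembly. NRF1 and the ETS-family factor GABP are known transcriptional activators of many of these nuclear genes.

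Proximal promoters are shown first, because both regulators are known to act through short motifs in such regions. They are those of the genes with the smallest p among the higher calls of each complex, and among the lower calls of complex IV, in OGD/R against normoxia, where a sequence was matched. Sequences came from RefSeq on the build GRCr8, which differs from the build Rnor_6.0 named in the submitters' processing notes, and were matched by symbol alone for 74 of the 89 identifiers (72 distinct genes). Each line gives the 100 bases just before the transcription start, 5′ to 3′, with a match to the NRF1 motif (GCGCA and GCGC with any 1 base between them) or the ETS motif CCGGAAGT in capitals. The windows are chr9:72073606-72073705 on the minus strand for Ndufs1, chr1:30764453-30764552 on the plus strand for Sdha, chr10:38089979-38090078 on the minus strand for Uqcrq, chr6:16936474-16936573 on the plus strand for Cox7a2l, chr9:46417737-46417836 on the plus strand for Cox5b and chr7:1099958-1100057 on the plus strand for Atp5f1b.
Ndufs1: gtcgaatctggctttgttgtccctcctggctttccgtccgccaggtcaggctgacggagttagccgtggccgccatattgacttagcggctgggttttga
Sdha: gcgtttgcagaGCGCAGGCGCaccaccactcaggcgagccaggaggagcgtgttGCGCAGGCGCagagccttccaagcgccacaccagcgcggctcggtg
Uqcrq: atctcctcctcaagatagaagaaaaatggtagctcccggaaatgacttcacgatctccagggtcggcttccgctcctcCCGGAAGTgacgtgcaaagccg
Cox7a2l: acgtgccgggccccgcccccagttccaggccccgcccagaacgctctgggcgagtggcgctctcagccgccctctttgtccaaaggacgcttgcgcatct
Cox5b: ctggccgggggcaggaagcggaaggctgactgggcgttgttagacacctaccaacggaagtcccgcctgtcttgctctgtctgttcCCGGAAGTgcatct
Atp5f1b: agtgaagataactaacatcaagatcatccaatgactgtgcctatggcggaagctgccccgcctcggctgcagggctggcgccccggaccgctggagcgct

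Sdha held 2 NRF1 matches in its window. Uqcrq and Cox5b each held an ETS match close to the start. The Cox7a2l, Ndufs1 and Atp5f1b windows held no match, and the ETS match of Ndufs1 lay outside its window. Over 300 bases (250 before the start to 50 after it, both strands), 13 of 72 promoters held the NRF1 motif, or 18.1%, against 1157 of 19005 protein-coding promoters, or 6.09%. By complex these were 6 of 30 for complex I, 1 of 4 for complex II, 1 of 6 for complex III, 0 of 17 for complex IV and 5 of 15 for complex V. The ETS motif was in 8 of 72, or 11.1%, against 4.99% of all protein-coding promoters, and no promoter of the 72 held both. These are matches of letters, with no test and no measurement of binding.

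The depth per library was lowest in DMT 3, with 12162759 reads in genes, and highest in normoxia 1, with 18565166. The summed level of 9 endothelial markers was 8820 to 10482 CPM (counts scaled to a common total by the TMM method) over all libraries. A 10th, Pecam1, was not found under that symbol. For the co-cultured cell types, 9 pericyte and smooth muscle markers, all with reads, summed to between 32.2 CPM (lowest, in DMT) and 85.5 CPM (highest, in OGD/R). The 7 astrocyte markers summed to at most 1.18 CPM. The part of these cells in the differences between groups was not tested. OGD/R 3 stood apart in noncoding RNA, at 0.839% of counts against 0.0209% to 0.0365% elsewhere. OGD/R 5 and DMT 5 stood apart in the share of counts taken by 94 ribosomal protein genes, at 3.50% and 3.70%, where the remaining OGD/R libraries had 2.12% to 2.60% and the remaining DMT libraries 2.03% to 2.23%. This share averaged 2.58% ± 0.486 in OGD/R, 2.47% ± 0.696 with DMT, 2.24% ± 0.161 with DMT and BD1063 and 2.22% ± 0.259 in normoxia (SD, n = 6, 5, 6 and 6). It was higher in OGD/R than in normoxia by 0.353 percentage points and lower with BD1063 than in OGD/R by 0.333 points, and neither of these nor the remaining 2 differences passed a two-sided exact permutation test (p between 0.0952 and 0.719, adjusted over 4 comparisons between 0.260 and 0.719). Without OGD/R 5 these differences were 0.168 and −0.148 points. That of DMT against OGD/R then turned to 0.0744 points, and that of BD1063 against DMT was 0.0869 points without DMT 5, each with the opposite sign in all libraries (−0.111 and −0.222 points).

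Of the 89 identifiers, 80 passed the filter on low counts and entered the tests. The 9 that did not are all forms of complex IV subunits known from other tissues or states, or a pseudogene-like copy. Ndufa4l2, a hypoxia-inducible relative of Ndufa4, summed to 17 reads in the 6 OGD/R libraries, 12 in the 5 DMT libraries, 14 in the 6 BD1063 libraries and 32 in the 6 normoxia libraries. Cox4i2, the alternative form of Cox4i1 known from lung and hypoxic cells, summed to 4, 12, 11 and 17 reads in the same groups. These are too few reads to read a difference from. The heart and muscle form Cox7a1 had 44 reads in all 23 libraries and the testis form Cox6b2 had 43, while Cox6c-ps1 had 2 and the muscle form Cox6a2 had 1. Cox8b, Cox8c and Cox7b2 had 0, which allows up to 3 reads in the sum. The common forms Cox4i1, Cox6a1, Cox6b1 and Cox8a all passed the filter, and Cox7a2 was not found under that symbol.

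After OGD/R 23 of the 80 tested subunit genes rose relative to normoxia, with some in each of the 5 complexes, and 1, Cox7a2l, fell. Over all 13834 genes tested 35.5% were called in this comparison, 18.9% higher and 16.7% lower, so the share of subunit genes called was not above that of genes in general, while all but 1 of their calls were higher. The log2 fold change was above 0 for 78 of the 80, with a median of 0.30, against a median of 0.01 over all genes. Calls were made with edgeR's quasi-likelihood test at a Benjamini-Hochberg adjusted p of 0.05 over all 13834 genes, and fits that left out libraries were adjusted over the 13801 to 13935 genes that passed the filter there. In such bulk samples, a different number of cells of a type and a different amount of RNA per cell cannot be told apart.

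All 5 complexes had a positive median. The median log2 fold change was 0.31 for complex I, 0.19 for complex II, 0.27 for complex III, 0.34 for complex IV and 0.30 for complex V. Higher calls numbered 9 of 36 in complex I, 2 of 4 in complex II, 4 of 10 in complex III, 4 of 13 in complex IV and 4 of 17 in complex V. No difference between complexes was tested. Without OGD/R 5 the medians were 0.21, 0.14, 0.15, 0.18 and 0.17 for complexes I to V, and 13 members rose and 1 fell (31.4% of all genes called). The count of 24 called was 15 without normoxia 6 (30.7% of all genes) and 56 without DMT 5 (43.5%).

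**Figure D1:**
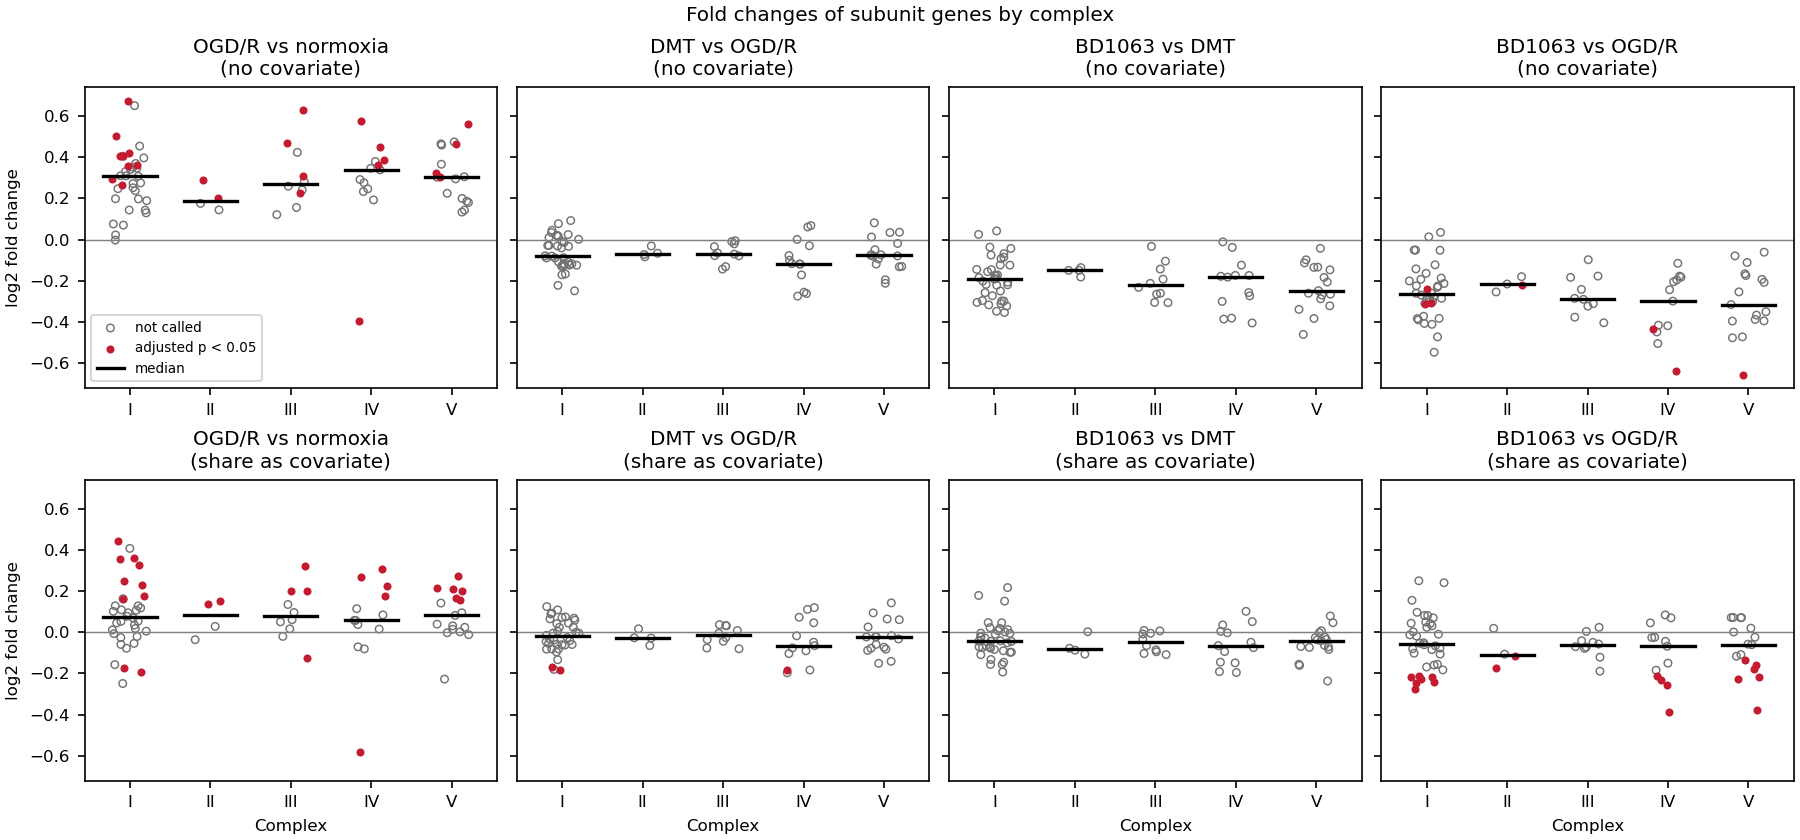
Log2 fold change of each of the 80 tested subunit genes (y axis) by complex (x axis) in 4 comparisons, without a covariate in the upper row and with the ribosomal protein share as covariate in the lower row. Filled red points have an adjusted p under 0.05 and the bar is the median. In OGD/R against normoxia the medians lie between 0.19 and 0.34 in the upper row and between 0.06 and 0.08 in the lower row, and Cox7a2l is the lowest point of both.

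In complex I, Ndufs1, the iron-sulfur core subunit of the NADH-oxidising arm, had the smallest p of all members. Its lowest, median and highest levels were 144, 149 and 164 CPM in OGD/R and 107, 118 and 130.4 CPM in normoxia. Every OGD/R insert lay above every normoxia insert, and OGD/R 5 was not high in this gene, at 146 CPM. The log2 fold change was 0.36 ± 0.05 (SE; adjusted p = 7.32e-06). Ndufa9, an accessory subunit at the joint of the membrane arm and the peripheral arm, gave 76.1, 79.3 and 93.4 CPM in OGD/R (lowest, median and highest), against 55.1, 63.1 and 68.4 CPM in normoxia. These groups did not overlap either, and the log2 fold change was 0.41 ± 0.07 (adjusted p = 8.12e-05). Neither call was lost when any 1 of the 23 libraries was left out.

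The other complex I genes that rose included the core subunit Ndufv1, which binds NADH and FMN, and the accessory subunits Ndufa12, Ndufb6, Ndufb9, Ndufb10 and 1 of the 2 Ndufv3 identifiers. Ndufa12, singled out after its value was seen, had the largest rise of all members, with a log2 fold change of 0.67 ± 0.15. The other Ndufv3 identifier, at −0.0023, had the only value below 0 in complex I. Of the 7 core subunits coded in the nucleus 3 rose, and of the 29 accessory identifiers 6 did, with medians of 0.31 in both sets. The division into core and accessory subunits was made after the values were seen.

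Complex II, which is also the succinate dehydrogenase of the citrate cycle, is wholly nuclear-coded. Sdha, its flavoprotein, had 169, 194 and 205 CPM in OGD/R (lowest, median and highest), against 155, 169 and 172 CPM in normoxia. The ranges overlapped through 1 OGD/R insert, OGD/R 4 at 169 CPM, and the log2 fold change was 0.20 ± 0.05 (adjusted p = 0.00535). Sdhc, a membrane anchor that helps bind quinone, had 121, 134 and 169.6 CPM in OGD/R, against 106, 110.1 and 126 CPM in normoxia. Its log2 fold change was 0.29 ± 0.10 (adjusted p = 0.0209), and without OGD/R 5 it was 0.21 and no longer passed (adjusted p = 0.0775). Sdhb, the iron-sulfur subunit, at 0.14 ± 0.08 (adjusted p = 0.195), and Sdhd, the other anchor, at 0.18 ± 0.13 (adjusted p = 0.328), did not pass.

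In complex III, Cyc1 (cytochrome c1, which hands electrons to cytochrome c) had 114, 124 and 139.9 CPM in OGD/R (lowest, median and highest), against 90.0, 98.3 and 118 CPM in normoxia. Only the highest normoxia insert reached into the OGD/R range, and the log2 fold change was 0.31 ± 0.08 (adjusted p = 0.00456). Uqcrq, a small subunit next to cytochrome b, had 86.6, 102 and 169 CPM in OGD/R and 54.8, 69.2 and 92.8 CPM in normoxia. OGD/R 5 gave the high end, and normoxia 5 alone lay inside the OGD/R range. The log2 fold change of Uqcrq was 0.63 ± 0.18 (adjusted p = 0.00990), and 0.45 to 0.71 over the fits that left out 1 library. The core protein Uqcrc1 and the small subunit Uqcr10 also rose, and Uqcrh, the hinge protein that docks cytochrome c1, did not pass at 0.16 ± 0.18 (adjusted p = 0.519).

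Complex IV held the 1 member that fell. Cox7a2l, known as SCAF1, is a relative of the complex IV subunit Cox7a2 that joins complexes III and IV into a supercomplex. It had 137, 151 and 210 CPM in OGD/R (lowest, median and highest), against 192, 203 and 231 CPM in normoxia. OGD/R 5 alone lay inside the normoxia range, and the other 5 OGD/R inserts, at 137 to 162 CPM, lay below it. The log2 fold change was −0.40 ± 0.11 (adjusted p = 0.00864), it stayed between −0.50 and −0.36 when any 1 library was left out, and the call held each time.

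Cox5b, a zinc-binding subunit on the matrix side, rose: it had 68.9, 83.6 and 124 CPM in OGD/R, against 59.0, 62.9 and 84.6 CPM in normoxia (lowest, median and highest), a log2 fold change of 0.39 ± 0.11 (adjusted p = 0.0105). The ranges overlapped, with OGD/R 5 highest. Cox7c, a small transmembrane subunit, had 186, 232 and 333 CPM in OGD/R, against 128, 163 and 189.7 CPM in normoxia, and rose by 0.57 ± 0.17 on the log2 scale (adjusted p = 0.0129). Its ranges met only at the lowest OGD/R insert. Ndufa4, once taken for a complex I subunit, rose by 0.36 ± 0.12 (adjusted p = 0.0233), and this call was lost in 5 of the 23 fits that left out 1 library. Those were the fits without OGD/R 2, OGD/R 5, normoxia 1, normoxia 4 or normoxia 6, with a highest adjusted p of 0.102 and values between 0.24 and 0.34. Cox7b rose as well. Cox4i1, the largest nuclear-coded subunit of the complex, at 0.23 ± 0.14 (adjusted p = 0.191), and Cox6a1, at 0.35 ± 0.16 (adjusted p = 0.0885), did not pass.

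Complex V was led by the α and β subunits of its catalytic head. Atp5f1b, the β subunit that carries the catalytic sites, had 986, 1023 and 1181 CPM in OGD/R (lowest, median and highest), against 775, 842 and 959 CPM in normoxia. Atp5f1a, the α subunit, had 481, 492 and 557 CPM in OGD/R, against 376, 397 and 446 CPM in normoxia. Neither gene's groups overlapped. The log2 fold change was 0.30 ± 0.08 for Atp5f1b (adjusted p = 0.00317) and 0.32 ± 0.08 for Atp5f1a (adjusted p = 0.00372), and both calls held without any 1 library. Atp5mc1, a gene for the rotating c-ring, and Atp5pd, of the peripheral stalk, rose as well. Atp5mg, at 0.46 ± 0.18 (adjusted p = 0.0527), and Atp5md, known as DAPIT, at 0.46 ± 0.19 (adjusted p = 0.0609), both small membrane subunits tied to ATP synthase dimers, and the membrane subunit Atp5mf, at 0.30 ± 0.19 (adjusted p = 0.220), did not pass. For Atp5mg and Atp5md this depended on the libraries fitted. Both passed with only the 2 groups fitted (adjusted p = 0.0112 and 0.0182) and without OGD/R 5 and DMT 5 (adjusted p = 0.00614 and 0.0249).

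Ndufa9, Ndufs1, Atp5f1a and Atp5f1b were thus the 4 members whose OGD/R and normoxia groups did not overlap, all with OGD/R above. Over all genes tested 16.4% had groups apart in this comparison, 9.14% with OGD/R above and 7.23% with OGD/R below. Levels are CPM and were not divided by gene length, so they are not compared between genes. The summed level of 6 fibroblast markers, 6 of 6 with reads, was 136 to 419 CPM in OGD/R and 425 to 945 CPM in normoxia, and its part in these differences was not tested. Most of the sum came from Col1a1, averaging 148 CPM in OGD/R and 314 CPM in normoxia, and Col3a1, at 105 and 285 CPM. In the same order Fbln1 averaged 20.6 and 37.1 CPM, Pdgfra 3.37 and 4.63, Dcn 0.185 and 0.345, and Lum 0.0526 and 0.251.

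**Figure D2:**
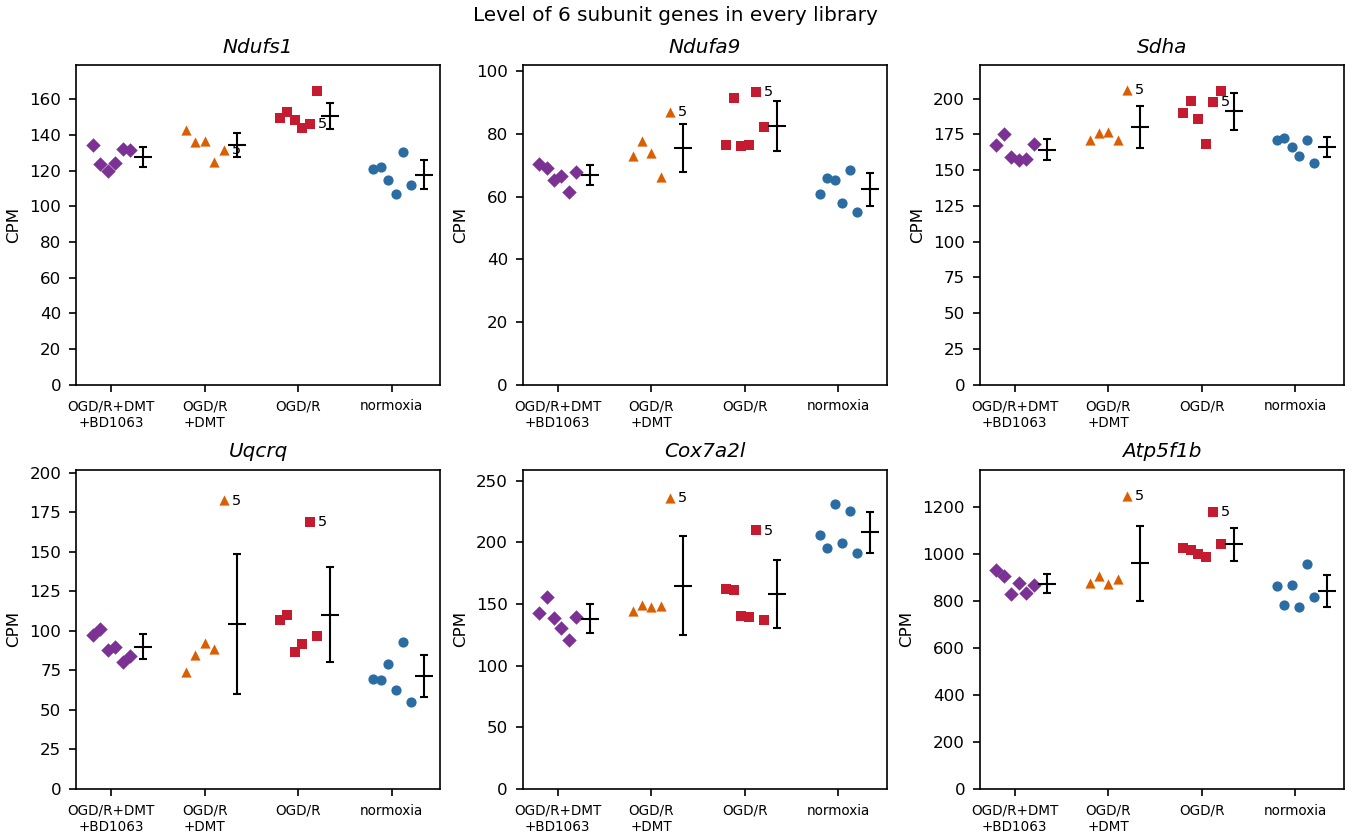
Level of 6 subunit genes (y axes, CPM, from 0) in every library of the 4 groups (x axes), with the mean and SD beside each group and the number 5 beside OGD/R 5 and DMT 5. Ndufs1, Ndufa9 and Atp5f1b have no overlap between OGD/R and normoxia, Cox7a2l has its highest mean in normoxia, and DMT 5 reaches 182 CPM in Uqcrq while the other DMT inserts reach 92.1 CPM at most.

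DMT given with OGD/R was compared with OGD/R alone, which asks whether DMT altered the response to deprivation. No subunit gene passed the test. Over all genes edgeR called 0.492%. Of the 80 members, 63 had a log2 fold change below 0, with medians of −0.08, −0.07, −0.07, −0.12 and −0.08 for complexes I to V. An unadjusted p under 0.05 was reached by 2 members, among them Ndufs1. For such unadjusted counts, here and below, the share of all genes was not counted. DESeq2 also called 0 members, where it called 1.91% of all genes. Ndufs1 had 142, 136, 137, 125 and 131 CPM in the 5 DMT inserts, against a lowest of 144 and a highest of 164 CPM in OGD/R. All DMT inserts lay below all OGD/R inserts, the only member of which that held (1.37% of all genes had groups apart, 0.795% with DMT above and 0.578% with DMT below). Its log2 fold change was −0.17 ± 0.05, with an adjusted p of 0.168.

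The comparison depended on DMT 5 and OGD/R 5. For example, Uqcrq had 73.7, 84.9, 92.1, 88.6 and 182 CPM in the 5 DMT inserts and Cox7a2l had 144.1, 149, 147, 148 and 236 CPM. The fifth insert stood far above the others in both. In mean log2 CPM over the tested members, DMT 5 exceeded the median of the other DMT libraries by 0.87 in complexes I, III and IV, 0.95 in complex V and 0.57 in complex II. OGD/R 5 exceeded the median of its group by 0.52 in complex I, 0.27 in complex II, 0.53 in complex III, 0.67 in complex IV and 0.62 in complex V. Without DMT 5 alone, 23 members were called lower with DMT, where 5.12% of all genes were, and without both OGD/R 5 and DMT 5, 7 were, where 1.94% of all genes were. Without OGD/R 5 alone 0 were called (0.405% of all genes), and the medians were 0.03, −0.01, 0.04, 0.01 and 0.03 for complexes I to V. Atp5f1b, at −0.23 (adjusted p = 0.0251), Cox7c, at −0.54 (adjusted p = 0.0265), and Cox4i1, at −0.34 (adjusted p = 0.0421), were among those that passed without DMT 5.

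BD1063 added to DMT was compared with DMT alone, which asks whether blocking sigma receptors undid an effect of DMT. No subunit gene passed the test, nor did any of all genes tested (0%). DESeq2 likewise called 0 of the members, where it called 0.00723% of all genes. In the edgeR fit 10 members reached an unadjusted p under 0.05. Medians were −0.19, −0.15, −0.22, −0.18 and −0.25 for complexes I to V, and 78 of 80 values lay below 0. The negative medians of complexes I, III and V rested on DMT 5: without it they were 0.04, 0.01 and 0.02. Groups overlapped for all 80 members, while 0.911% of all genes had groups apart, 0.405% with BD1063 above and 0.506% below.

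BD1063 and DMT together were compared with OGD/R alone, and 7 of the 80 tested subunit genes fell while 0 rose. Of all genes 5.31% were called, 1.86% higher and 3.46% lower. An unadjusted p under 0.05 was reached by 33 members, and the share of all genes at that level was not counted. The 7 included Ndufa9 and Ndufs1 of complex I, Sdha of complex II, Cox7c and Ndufa4 of complex IV and Atp5md of complex V, and none was of complex III. The median log2 fold change was −0.26, −0.22, −0.29, −0.30 and −0.32 for complexes I to V, against −0.01 over all genes. This comparison and the first share the OGD/R libraries, so a value high or low there moves both.

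Ndufs1 had 119.8, 128 and 134 CPM with BD1063 (lowest, median and highest), against 144, 149 and 164 CPM in OGD/R. The groups did not overlap, and the log2 fold change was −0.24 ± 0.05 (adjusted p = 0.0158). Ndufa9 had 61.4, 67.3 and 70.5 CPM with BD1063, against 76.1, 79.3 and 93.4 CPM in OGD/R, a log2 fold change of −0.31 ± 0.07 (adjusted p = 0.0232), again with no overlap. Sdha had 157, 163 and 175 CPM with BD1063, against 169, 194 and 205 CPM in OGD/R, a log2 fold change of −0.22 ± 0.05 (adjusted p = 0.0312). Here the ranges overlapped through OGD/R 4.

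Cox7c had 133, 149.8 and 185 CPM with BD1063, against 186, 232 and 333 CPM in OGD/R (lowest, median and highest), a log2 fold change of −0.64 ± 0.17 (adjusted p = 0.0398). The groups were just apart. Ndufa4 had 80.6, 97.7 and 112 CPM with BD1063, against 106, 120.5 and 180.1 CPM in OGD/R, a log2 fold change of −0.44 ± 0.12 (adjusted p = 0.0418). Atp5md had 40.1, 51.2 and 61.5 CPM with BD1063, against 62.8, 76.0 and 114 CPM in OGD/R, a log2 fold change of −0.65 ± 0.19 (adjusted p = 0.0457). The Atp5md groups did not overlap and the Ndufa4 groups did. Atp5f1b missed the threshold, at −0.25 ± 0.08 (adjusted p = 0.0507), although all its BD1063 inserts, at 832 to 931 CPM, lay below all OGD/R inserts.

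Groups were apart, with BD1063 below, for 7 members: Ndufa1, Ndufa9, Ndufs1, Cox7c, Atp5f1b, Atp5mc3 and Atp5md. Over all genes 4.78% were apart, 2.1% with BD1063 above and 2.67% below. These calls depended on single libraries. Of the 23 fits that left out 1 library, the call of Ndufs1 was lost in 1 (without BD1063 3, adjusted p = 0.0533), that of Ndufa9 in 5, Sdha in 6, Cox7c in 8, Ndufa4 in 10 and Atp5md in 16. The count of 7 was 0 without BD1063 3, 1 without OGD/R 2, OGD/R 5, BD1063 4 or BD1063 5, 2 without OGD/R 6, 3 without BD1063 6, 13 without OGD/R 4 and 37 without DMT 5, a library in neither group that adds to the shared estimate of the spread. Over all genes the share called lower was 0.296% without BD1063 3, 4.71% without OGD/R 4 and 10.7% without DMT 5. It was 0.449% without OGD/R 2, 1.27% without OGD/R 5 and 1.62% without OGD/R 6. Without BD1063 4, BD1063 5 or BD1063 6 it was 0.593%, 0.326% and 1.11%.

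The level of the subunit genes in a library went with its ribosomal protein share. In a fit with the 4 groups and the log2 share as a covariate, the slope is the log2 change of a gene per doubling of the share within a group. It was positive and called for 76 of 80 members and negative and called for 0, where 60.2% of all genes were called, 31.2% positive and 29% negative. The median slope was 1.08 over the members and 0.00 over all genes. By complex it was 1.04 for complex I, 0.65 for complex II, 1.19 for complex III, 1.12 for complex IV and 1.16 for complex V. The slope compares parts of the same library totals, the ribosomal protein genes are not members, and OGD/R 5 and DMT 5 supply most of the spread in the share. Without these 2 libraries 73 members had a positive called slope, where 18.5% of all genes did, and the medians for complexes I to V were 0.86, 0.65, 0.97, 1.10 and 0.98, against 0.07 over all genes.

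**Figure D3:**
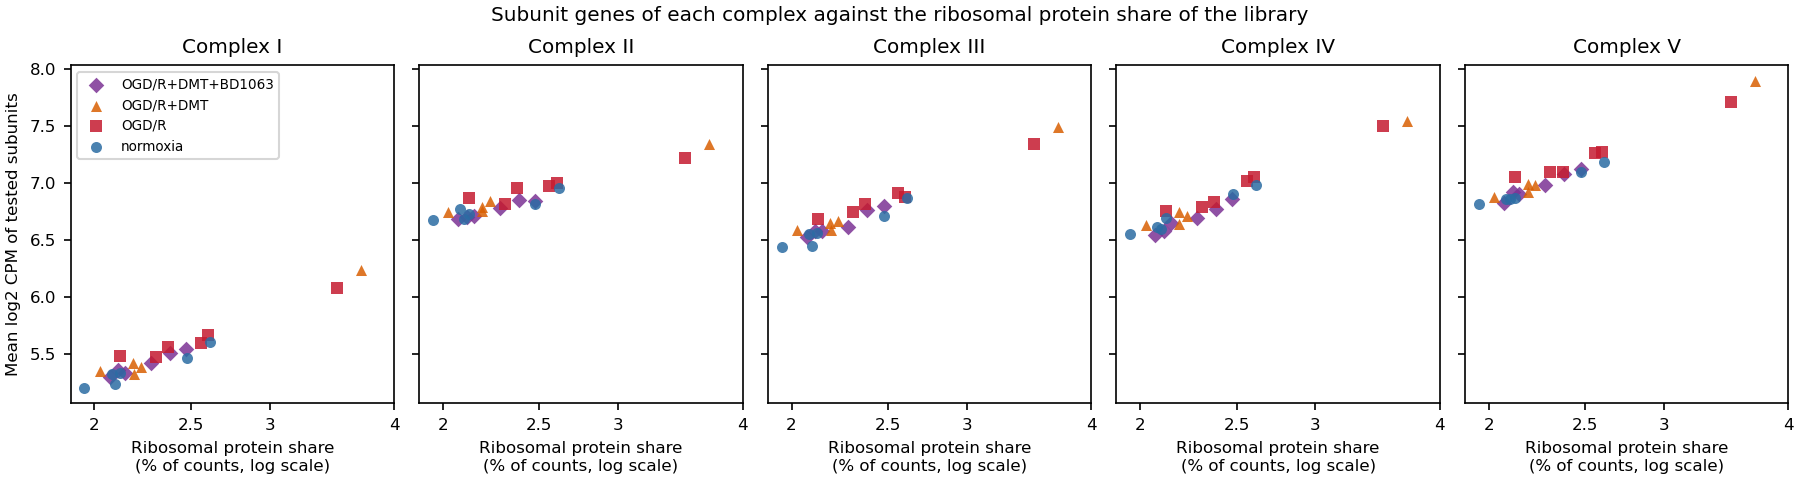
Mean log2 CPM of the tested subunit genes of each complex (y axis) against the ribosomal protein share of the library (x axis, percent of counts, log scale) for all 23 libraries. The level rises with the share in every panel, least in complex II, and OGD/R 5 and DMT 5, at 3.50% and 3.70%, are the 2 points at the right.

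Members differed widely in slope. The steepest were Ndufb7, at 1.79 ± 0.11 (SE), an accessory subunit of complex I with paired-cysteine folds, the ATP synthase membrane subunit Atp5me, at 1.74 ± 0.13, Cox6c, at 1.63 ± 0.12, and Atp5f1e, the small ε subunit of the ATP synthase, at 1.61 ± 0.14. The 4 without a called slope were Ndufs1, at 0.00 ± 0.08 (adjusted p = 0.983), both Ndufv3 identifiers, at −0.07 ± 0.11 and 0.30 ± 0.15, and 1 Ndufa10l1 identifier, at 1.11 ± 0.53. Shallow but called were Sdha, at 0.26 ± 0.07 (adjusted p = 0.00159), Uqcrc2, a core protein of complex III, at 0.29 ± 0.08, and Ndufa9, at 0.41 ± 0.08. The Sdha slope did not pass without DMT 5, at 0.21 (adjusted p = 0.0734).

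Median slopes by part of a complex were as follows. In complex III the median was 0.59 over Uqcrc1, Uqcrc2, Cyc1 and Uqcrfs1 (0.29 to 1.06), which form the core and carry electrons, and 1.31 over the 6 identifiers of small subunits (1.09 to 1.41). In complex V it was 0.68 over the 5 subunits of the catalytic head and its stalk (0.52 to 1.61), 1.10 over the 4 peripheral stalk subunits (0.76 to 1.34) and 1.39 over the 7 subunits of the membrane part (0.58 to 1.74), so that these ranges overlapped. Atp5if1, the inhibitor of the ATP synthase, stood at 1.23. In complex I it was 0.90 over the 7 core (0.00 to 1.13) and 1.11 over the 29 accessory identifiers (−0.07 to 1.79), again with overlap. These divisions were made after the slopes were seen and carry no test.

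The slope of Uqcrq was 1.41 ± 0.07 (adjusted p = 1.74e-16), that of Cox6a1 1.20 ± 0.07 (adjusted p = 7.83e-16) and that of Ndufa6, an accessory subunit of complex I, 1.36 ± 0.08 (adjusted p = 7.97e-16). Atp5mf, at 1.43 ± 0.08 (adjusted p = 8.02e-16), Ndufb2, at 1.57 ± 0.09 (adjusted p = 1.14e-15), and Uqcrh, at 1.34 ± 0.08 (adjusted p = 1.68e-15), were close behind in p. Atp5mg, at 1.39 ± 0.08 (adjusted p = 2.81e-15), came next in complex V and Cox4i1, at 1.03 ± 0.07 (adjusted p = 2.39e-14), in complex IV. In complex II the anchors Sdhd, at 1.02 ± 0.07 (adjusted p = 8.10e-14), and Sdhc, at 0.72 ± 0.06 (adjusted p = 3.11e-12), led. Without OGD/R 5 and DMT 5 the slope was 1.41 for Uqcrq, 1.10 for Cox6a1, 1.24 for Ndufa6, 0.85 for Sdhd and 0.64 for Sdhc, and each was still called. That of Ndufs1 was then 0.23 (adjusted p = 0.253).

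**Figure D4:**
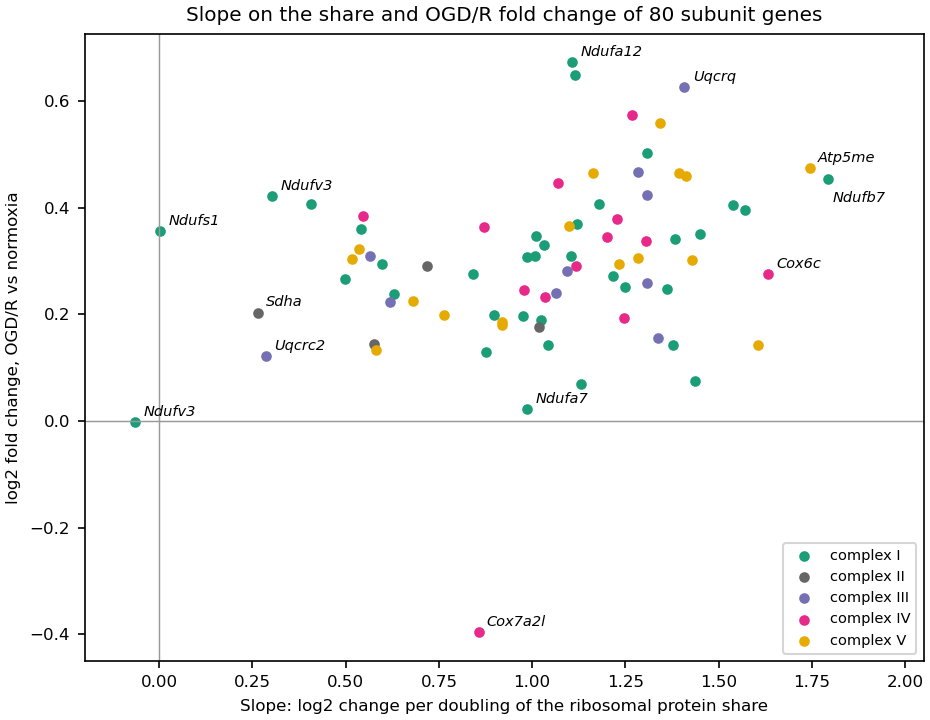
Slope on the ribosomal protein share (x axis, log2 change per doubling of the share) and log2 fold change of OGD/R against normoxia without a covariate (y axis) for the 80 tested subunit genes, coloured by complex. Ndufs1 lies at a slope of 0.00 with a fold change of 0.36, Ndufb7 at the right end with a slope of 1.79, and Cox7a2l at a fold change of −0.40.

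With the share as a covariate the median differences between groups were smaller. In OGD/R against normoxia the medians were 0.07, 0.08, 0.08, 0.06 and 0.08 for complexes I to V. The test called 23 members higher and 4 lower, where 43% of all genes were called, 23.4% higher and 19.7% lower. Ndufs1 was at 0.36 ± 0.05 (adjusted p = 3.10e-07), as without the covariate, Ndufa12 at 0.44 ± 0.07 and Uqcrq at 0.32 ± 0.05 (adjusted p = 9.34e-07). The 4 lower were Cox7a2l, at −0.58 ± 0.04 (adjusted p = 5.02e-13), Uqcrh, at −0.13 ± 0.05 (adjusted p = 0.0412), and the complex I subunits Ndufa7, at −0.19 ± 0.06, and Ndufs7, at −0.17 ± 0.06. Uqcrh, Ndufa7 and Ndufs7 had positive values without the covariate, at 0.16, 0.02 and 0.07. The share is itself measured on these libraries, so this fit sets part of any group difference in it aside.

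In DMT against OGD/R with the covariate, 3 members were lower and 0 higher (6.24% of all genes were called, 2.99% higher and 3.25% lower). They included Ndufs1, at −0.17 ± 0.05 (adjusted p = 0.0343), and Cox7b, at −0.18 ± 0.06 (adjusted p = 0.0472). With the covariate and without OGD/R 3, 2 were called (6.32% of all genes), and Ndufs1 was not among them. With the covariate and without OGD/R 5 and DMT 5, 0 were called (2.08% of all genes). With the covariate in all libraries, BD1063 against DMT had 0 called members and 0% of all genes called. In BD1063 against OGD/R 19 were lower and 0 higher (10.1% of all genes were called, 3.95% higher and 6.19% lower), led by Atp5md, at −0.38 ± 0.06 (adjusted p = 0.000328), Cox7c, at −0.39 ± 0.07 (adjusted p = 0.00128), and Ndufs1, at −0.24 ± 0.05 (adjusted p = 0.00171), while medians by complex were −0.11 to −0.06.

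All 89 members together took 0.953% ± 0.135 of counts in OGD/R, 0.911% ± 0.232 with DMT, 0.819% ± 0.0516 with BD1063 and 0.793% ± 0.0749 in normoxia (SD, n = 6, 5, 6 and 6). Relative to the ribosomal protein counts of the same library they came to 37.2% ± 1.51, 37.1% ± 1.15, 36.5% ± 0.409 and 35.7% ± 1.01 in the same groups. The ratio in DMT 5, at 35.8%, was the lowest of its group, and that of OGD/R 5, at 34.3%, was the lowest of all.

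Other genes of the pathway were read from lists chosen with earlier results of these data known. In OGD/R against normoxia 14 of 44 tested assembly factors rose and 1 fell, with a median of 0.23, where 18.9% of all genes rose and 16.7% fell. Those that rose included Ndufaf2 of complex I, at 0.62 ± 0.13 (adjusted p = 0.000710), Bcs1l, which inserts the iron-sulfur protein into complex III, at 0.36 ± 0.07 (adjusted p = 0.000471), and Tmem70 of the ATP synthase, at 0.41 ± 0.12 (adjusted p = 0.0111). Of 13 citrate cycle genes 9 rose and 0 fell, with a median of 0.24. Fh, fumarase, was at 0.50 ± 0.07 and Mdh2, the mitochondrial malate dehydrogenase, at 0.42 ± 0.11 (adjusted p = 0.00321). Of 14 genes of coenzyme Q and mobile carriers 3 rose and 0 fell, among them Cycs, cytochrome c, at 0.54 ± 0.13 (adjusted p = 0.00202), and Coq7, which makes coenzyme Q, at 0.62 ± 0.10 (adjusted p = 2.45e-05). Of 11 tested regulators 3 rose (Ppargc1b, Tfam and Tfb1m) and 1 fell (Gabpb1).

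Of 3 tested subunits or associated proteins whose names fall outside the rule, Ndufab1, the mitochondrial acyl carrier protein found in complex I, rose at 0.41 ± 0.16 (adjusted p = 0.0438), and the complex IV-associated Higd1a, at 0.11 ± 0.12, and Higd2a, at 0.19 ± 0.15, did not pass. Of the 13 subunits coded by the mitochondrial genome, 0 rose and 1 fell in OGD/R against normoxia, Mt-co1, at −0.29 ± 0.12 (adjusted p = 0.0487), and the median was −0.21. Their difference from the nuclear-coded subunits was not tested. Their slope on the ribosomal protein share was called positive for 1 of 13 and negative for 1, while assembly factors had 32 positive and 4 negative of 44 and citrate cycle genes 8 and 1 of 13, where 31.2% of all genes were positive and 29% negative. In DMT against OGD/R and in BD1063 against DMT 0 genes of these lists were called. In BD1063 against OGD/R the assembly factors Tmem126b, at −0.52 ± 0.11, and Cox14, at −0.48 ± 0.13, and Coq7, at −0.40 ± 0.10 (adjusted p = 0.0283), fell.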

How the data were processed

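Whole-number counts per gene were used as the authors deposited them, and each of the 23 columns was matched to its sample by library name. Per the labels' protocols, poly-A RNA was made into directional libraries and sequenced as single reads. The tools in the submitters' processing notes, listed without a role, were STAR 2.7.10a, RSEM 1.3.3, cutadapt 3.4, FastQC 0.11.9 and DESeq2 1.38. The sources used here do not say whether strand was used or how reads of near-identical copies were assigned. A second deposited table, named as TPM, holds the counts divided by 1 number per library and was not used.

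Tests used edgeR 4.0.16 under R 4.3.3 (quasi-likelihood, TMM scaling, filterByExpr with a minimum of 10 counts, 13834 genes), with all 23 libraries in 1 fit of 4 group means. Benjamini-Hochberg adjustment ran over all genes tested, with a threshold of 0.05. SE is the log2 fold change divided by the square root of F. A second fit added the log2 share of the counts of 94 protein-coding ribosomal protein genes. The fits were tested on simulated data. Shares were compared by two-sided exact permutation over 924 or 462 assignments. Mean log2 CPM used a prior count of 2.

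Named with full values were, per comparison and complex, the 2 called members with the smallest p, and for the slope the 2 smallest p per complex. In OGD/R against normoxia the 4 complex II subunits, Cox4i1, Cox6a1, Cox7a2l and Ndufa4 were named as well. Values of these genes in the other comparisons are given only in part. Other members named were chosen after their values were seen. Counts cover all members, and 1 member's own values are not reported here. The members and all lists were chosen with earlier results of these data known. Alternatives were DESeq2 1.42.0 and its size factors, other filters, the replicate block, the covariate, the compared groups alone, a slope on the mean log2 CPM of ribosomal protein genes, and leaving out libraries. Leaving out OGD/R 5 and DMT 5, or OGD/R 3, under the covariate was added after seeing the data.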

Additional observations from a re-analysis of the deposited data

Results flagged for a closer look

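Of 120 groups of values examined, 42 had their highest or lowest library farther from the rest than a small-sample outlier criterion allows (Dixon's, at 95%), which chance gives in about 1 in 20 groups. DMT 5 accounted for 26 and OGD/R 5 for 14. The values are not independent, since they come from the same libraries.

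DMT 5 stood apart in its ribosomal protein share of 3.70% and its members' share of counts of 1.33%. In mean log2 CPM of a complex it stood apart at 6.23 (complex I), 7.34 (complex II), 7.49 (complex III), 7.55 (complex IV) and 7.90 (complex V). In complexes I and II it stood apart in Ndufa6 at 141 CPM, Ndufb2 at 81.7 CPM, Sdha at 206 CPM, Sdhb at 111 CPM, Sdhc at 181 CPM and Sdhd at 168 CPM. In complex III it stood apart in Cyc1 at 152 CPM, Uqcrh at 291 CPM and Uqcrq at 182 CPM. In complex IV it stood apart in Cox4i1 at 520.3 CPM, Cox6a1 at 357 CPM, Cox7a2l at 236 CPM, Cox7c at 343 CPM and Ndufa4 at 142 CPM. In complex V it stood apart in Atp5f1a at 705 CPM, Atp5f1b at 1248 CPM, Atp5md at 127 CPM, Atp5mf at 176 CPM and Atp5mg at 331 CPM. Ndufs1, Ndufa9 and Cox5b were the named members in which DMT 5 did not stand apart by this criterion.

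OGD/R 5 stood apart in its ribosomal protein share of 3.50% and in the ratio of member counts to ribosomal protein counts, where at 34.3% it was the lowest of its group. In mean log2 CPM it stood apart at 6.08 (complex I), 7.34 (complex III) and 7.71 (complex V). Among genes it stood apart in Ndufa6 at 136 CPM, Ndufb2 at 71.3 CPM, Sdhc at 169.6 CPM, Sdhd at 143 CPM, Uqcrq at 169 CPM, Cox6a1 at 329 CPM, Cox7a2l at 209.7 CPM, Atp5f1b at 1181 CPM and Atp5mf at 151 CPM.

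The other values were Sdhb in BD1063 1, at 86.5 CPM, and Sdhc in normoxia 5, at 126 CPM, each the highest of its group. Their part in the differences between groups was not tested, beyond the fits without these libraries.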

How the results depend on the processing

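Among the named members, settings other than leaving out 1 library left the call unchanged in 991 cases. They lost a call in 8, gained one in 33 and reversed 2. Leaving out 1 library left the call unchanged in 2447 cases, lost one in 54, gained one in 29 and reversed 0. A change of sign counted as a reversal only where at least 1 of the 2 fits made a call. The unchanged cases therefore include uncalled values that changed sign. For example, Uqcrq in BD1063 against DMT was 0.09 without OGD/R 5 and DMT 5, where all 10 complex III values were below 0 in all libraries. The 2 counted reversals were of Uqcrh in OGD/R against normoxia, at −0.13 with the covariate and −0.17 with the covariate and without OGD/R 3. Ndufa7 and Ndufs7, named outside the rule and not in these counts, turned sign with the covariate as well, at −0.19 and −0.17. The labels do not state whether equal replicate numbers mark inserts handled together, and correlations of the inserts' deviations cannot settle it. Of 33 pairs with the same number 11 had a correlation of their deviations over 0.1, and the median was 0.01. The highest among them joined OGD/R 5 with DMT 5 (0.58), DMT 5 with normoxia 5 (0.45) and OGD/R 5 with normoxia 5 (0.42), and normoxia 5 had the highest ribosomal protein share of its group, 2.61%. The replicate block gave 37 called members in OGD/R against normoxia (37.7% of all genes were called) and 15 in BD1063 against OGD/R (7.6%). It gave 0 in DMT against OGD/R (0.267%) and in BD1063 against DMT (0%).

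In OGD/R against normoxia the count of 24 was 41 with only the 2 groups fitted and 14 to 56 over the fits that left out 1 library (14 without OGD/R 5, 15 without normoxia 6, 56 without DMT 5). Of all genes 35.5% were called in the fit of all libraries without a covariate and 35.7% with only the 2 groups. The share was 31.4% without OGD/R 5, 30.7% without normoxia 6 and 43.5% without DMT 5. In DMT against OGD/R the count of 0 was 3 with the covariate and 2 with the covariate and without OGD/R 3. It was 7 without OGD/R 5 and DMT 5, and 0 to 23 without 1 library. With the covariate and without OGD/R 5 and DMT 5 it stayed at 0 (2.08% of all genes were called). Here 0.492% of all genes were called in the fit of all libraries, 6.24% with the covariate and 6.32% with it and without OGD/R 3. The share was 3.29% without OGD/R 5 and DMT 5 and 7.77% without DMT 5 alone. In BD1063 against OGD/R the count of 7 was 13 with DESeq2, 2 with no low-count filter and 25 with only the 2 groups. It was 19 with the covariate, 20 without OGD/R 5 and DMT 5, and 21 with the covariate and without both. With the covariate and without OGD/R 3 it was 13, of which 12 were lower and 1 higher. Leaving out 1 library gave 0 to 37. Of all genes 5.31% were called in the fit of all libraries, 9.38% with DESeq2, 1.2% with no low-count filter and 11.2% with only the 2 groups. The share was 10.1% with the covariate, 10.6% without OGD/R 5 and DMT 5, and 10.1% with the covariate and without both. It was 7.88% with the covariate and without OGD/R 3, 0.55% without BD1063 3 and 17.3% without DMT 5. The slope kept 73 to 77 called members without any 1 library, where 46.5% (without DMT 5) to 60.9% (without OGD/R 6) of all genes were called. BD1063 against DMT stayed at 0 throughout, with at most 0.144% of all genes called.

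Medians moved as follows, in log2 units. With the covariate, OGD/R against normoxia gave 0.073, 0.057 and 0.082 for complexes I, IV and V, and BD1063 against OGD/R gave −0.057, −0.064, −0.068 and −0.061 for complexes I, III, IV and V. With the covariate and without OGD/R 5 and DMT 5 these were 0.11, 0.074 and 0.084, and −0.075, −0.071, −0.047 and −0.060. With the covariate and without OGD/R 3, OGD/R against normoxia gave 0.043, 0.060, 0.068, 0.034 and 0.050 for complexes I to V, BD1063 against OGD/R gave −0.022, −0.086, −0.046, −0.070 and −0.033, and DMT against OGD/R turned to 0.00634 for complex I and 0.0019 for complex III. Without OGD/R 5 and DMT 5, BD1063 against DMT turned to 0.045, 0.021 and 0.023 for complexes I, III and V. Leaving out 1 library gave ranges for complexes I to V of 0.21 to 0.34, 0.14 to 0.22, 0.15 to 0.32, 0.18 to 0.40 and 0.17 to 0.34 in OGD/R against normoxia. In DMT against OGD/R they were −0.31 to 0.025, −0.20 to −0.013, −0.34 to 0.036, −0.34 to 0.014 and −0.30 to 0.033, the positive ends without OGD/R 5, and complex V was 0.0040 without DMT 1. In BD1063 against DMT they were −0.25 to 0.038, −0.20 to −0.038, −0.29 to 0.014, −0.26 to −0.012 and −0.33 to 0.016, and in BD1063 against OGD/R −0.30 to −0.15, −0.25 to −0.17, −0.33 to −0.15, −0.35 to −0.15 and −0.35 to −0.17. The difference in ribosomal protein share turned to 0.0869 points in BD1063 against DMT without OGD/R 5 and DMT 5, and ranged without 1 library from 0.168 to 0.444 in OGD/R against normoxia, −0.420 to 0.0744 in DMT against OGD/R, −0.333 to 0.0869 in BD1063 against DMT and −0.424 to −0.148 in BD1063 against OGD/R. The cause of these changes was not tested.

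Limits are few inserts per group, 2 libraries that set the spread of the DMT and OGD/R groups, a share measured on the same libraries, and levels not divided by gene length.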
